A study of Homo sapiens with 6 samples.

Results

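The transcripts described here encode the proteins of the mitochondrial ribosome, measured in HEK293 cells, an established human embryonic kidney line, after a short exposure to sodium salicylate. They were chosen by name: every array probe whose platform gene symbol began with MRPL or MRPS followed by a number and at most 1 letter, with a detection p-value under 0.05 on at least 2 of the 6 arrays. The symbols matched 110 probes of 76 genes, and 103 of these probes passed the detection rule, of 22377 detected probes in all. They covered each of the 76 genes, of 12552 gene symbols with a detected probe, 48 of them MRPL and 28 MRPS. In 22 genes several probes were tested, in 54 only 1. Of the 103, 102 were detected on all 6 arrays and 1, a probe of MRPL55, on 5. The 7 probes that were not tested were detected on no array (1 each of MRPL3, MRPL44, MRPL47, MRPS12 and MRPS18C) or on 1 array (1 each of MRPL4 and MRPL39).

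The mitochondrial ribosome translates the few proteins encoded by mitochondrial DNA, which are subunits of the respiratory chain and of ATP synthase. Its RNAs are made inside the organelle, but all of its proteins are encoded by nuclear genes, translated in the cytosol and imported. MRPL proteins belong mostly to the large subunit, which forms peptide bonds, and MRPS proteins mostly to the small subunit, which holds the messenger RNA. Some have a counterpart in bacterial ribosomes and others are found in mitochondria alone.

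The control cells were collected at 0 min. The other groups were given sodium salicylate, the salt of aspirin's active metabolite, at 50 mM for 30 or for 60 min. Each group had 2 arrays, and total RNA was hybridised as biotinylated cRNA to an Illumina bead array. The labels name no vehicle or time-matched control, so the salt, handling and time in culture cannot be told apart from salicylate itself. Whether a group's 2 samples were grown as separate cultures is not stated. The p-values therefore cover the variation seen between these particular samples, and that variation may be technical.

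Arrays detected 20726 to 21740 of the 47323 probes, and any pair correlated at 0.9906 to 0.996 across probes. MRPL13 and MRPL15, taken as markers of the mitochondrial ribosome, were detected on all 6 arrays. Of 7 genes used to mark HEK293 cells, 6 were detected on every array and PAX2 on none. Of 10 markers of other cell types, 9 had a probe; 5 of these (PTPRC, CD3E, PECAM1, CDH5 and AQP2) were detected on no array, APOA1 on 2, DCN on 3, and ALB and COL1A1 on all 6. All values below are log2 normalised intensities or log2 differences of group means, and "rose" and "fell" are used of probes with an adjusted p-value, over all detected probes, under 0.05. Intensities of single probes are not compared with each other. In RNA from a whole culture, fewer cells with a transcript and less transcript per cell cannot be told apart.

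After 60 min, mitochondrial ribosomal protein transcripts were spread narrowly around their control levels. Of 103 probes 11 rose and 4 fell against control, in 12 genes. MRPL57 fell on both of its probes, to 0.646 and 0.598 of the control intensity, and MRPL11 rose most, to 1.35 times control on 1 of its 3 probes. The rises of MRPL21, MRPL23, MRPL37, MRPL40, MRPL41, MRPS15, MRPS31, MRPS33 and a second MRPL11 probe were all between 1.13 and 1.21 times control. Over all detected probes 7.74% rose and 8.54% fell. Called in either direction were 14.6% of the mitochondrial ribosomal probes and 16.3% of all probes. With only probes detected on all 6 arrays, 16 of 102 were called, against 20.4% of all such probes. With 1 probe a gene, 12 of 76 were called, against 22.9% of all genes. At an unadjusted p under 0.05 there were 30 of the 103, against 6760 of all 22377.

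The median change of the 103 probes at 60 min was 0.057 on the log2 scale, against 0.0013 over all detected probes, but with median scaling of the arrays it was -0.00258 while the median of all probes was -0.045. With quantile normalisation 70 of the 103 changes were above 0, and with median scaling 50 were. The median size of a change, regardless of sign, was 0.096 for these probes and 0.16 for all. It was 0.108 for cytosolic ribosomal protein probes and 0.094 for respiratory chain and ATP synthase probes, so the narrow spread was not particular to this family. For 96 of the 103 (93.2%) the 95% interval of the change lay within 0.5 of no change, as it did for 56.0% of all probes. In the cytosolic ribosomal and respiratory chain sets it did so for 84.0% and 90.7%. The median standard error was 0.068 for the 103 probes and 0.12 for all, and the width of an interval follows from it. The 103 probes were also brighter, with array medians of 11.13 to 11.26, against 8.16 for all detected probes. Whether brightness accounts for the narrower spread was not tested.

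**Figure D1:**
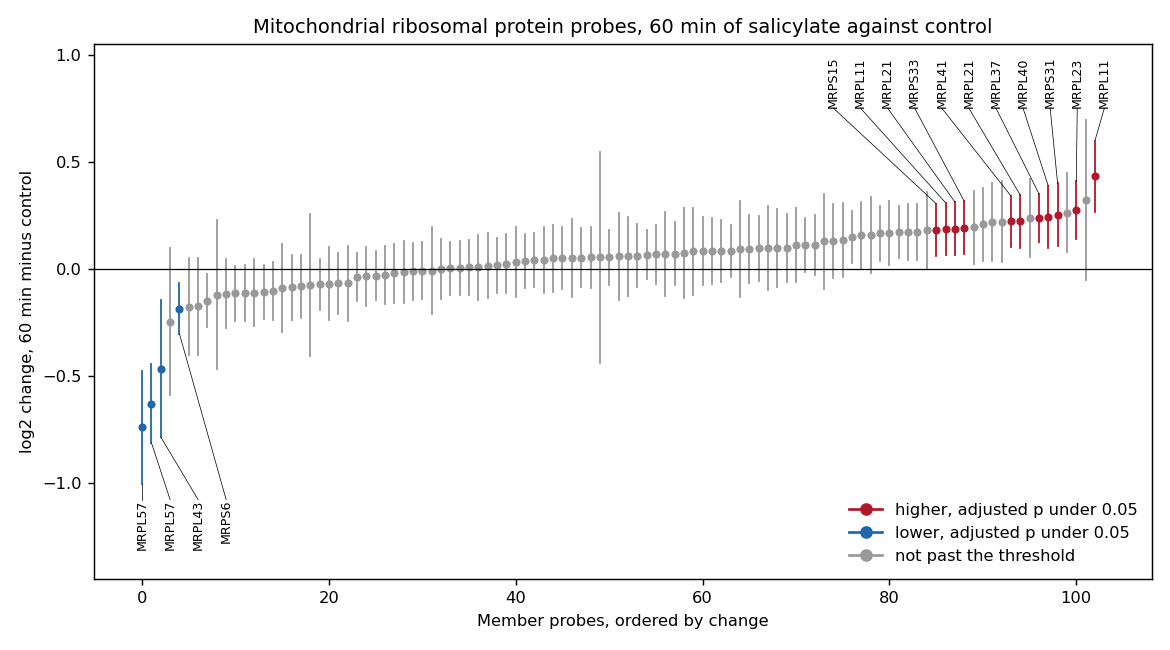
The log2 change from control to 60 min (y axis) is drawn for each of the 103 probes, ordered by change along the x axis, with its 95% interval from the limma fit. The 2 probes of MRPL57 stand lowest, 1 probe of MRPL11 stands highest, and the 15 probes with an adjusted p under 0.05 are named; under median scaling only 4 probes passed.

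On single arrays the median of the 103 changes against the control mean was 0.059 and 0.011 at 30 min (replicates 1 and 2) and 0.021 and 0.079 at 60 min. Within a group, replicate 2 minus replicate 1 had a median of -0.029 in the controls, -0.042 at 30 min and 0.032 at 60 min. Each of these was smaller in size than the 60 min group median of 0.057. With 2 arrays per group, the comparison cannot show a shift beyond replicate variation. The 60 min group median was 0.0265 without control replicate 2 and 0.0212 without 60 min replicate 2, and -0.00258 with median scaling. No test of a shift of the whole family was made.

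**Figure D2:**
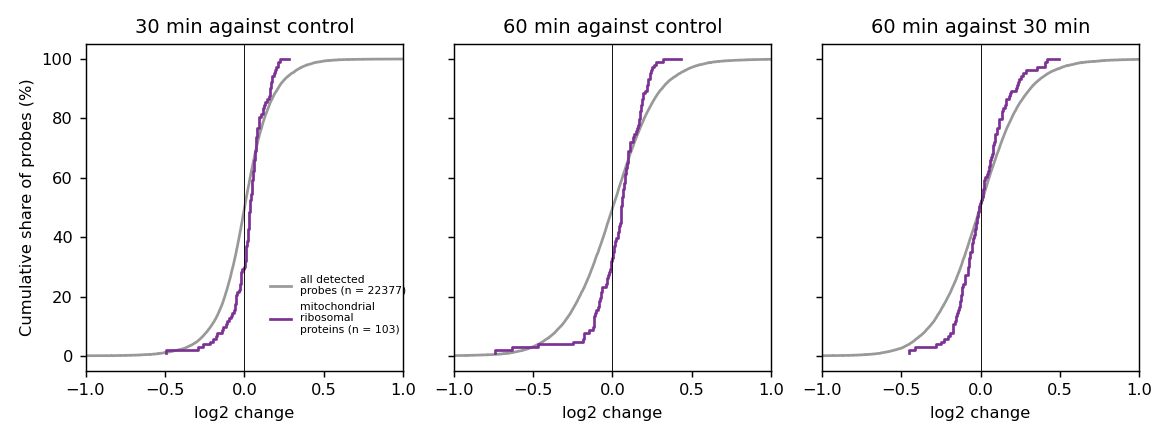
Cumulative share of probes (y axis, percent) below a given log2 change (x axis) in each of the 3 comparisons, for all 22377 detected probes in grey and the 103 mitochondrial ribosomal probes in purple. The purple curve is the steeper in each panel. Its median at 60 min against control was 0.057, and -0.00258 with median scaling. The medians of all probes were 0.0013 and -0.045.

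Among the large subunit proteins listed as particular to mitochondria, 26 probes were tested. At 60 min 3 rose and 3 fell (23.1% called, against 16.3% of all detected probes), with a median of 0.052. MRPL57, a small protein of the large subunit also known as MRP63, gave the largest falls of the whole family. Probe ILMN_2203807 read 9.89 and 9.73 in the controls, 9.55 and 9.64 at 30 min and 9.12 and 9.24 at 60 min. Both 60 min arrays lay below every 30 min array, and both 30 min arrays below the controls. The change at 60 min was -0.63 ± 0.084 (SE, n = 2 arrays per group, 95% interval -0.81 to -0.45, adjusted p = 0.000742). Probe ILMN_1774312 read 8.60 and 8.62 in the controls, 8.16 and 8.47 at 30 min and 7.97 and 7.77 at 60 min. The groups did not overlap on this probe either, and the change was -0.74 ± 0.12 (adjusted p = 0.00204). At 30 min the changes of the 2 probes were -0.22 and -0.29 (adjusted p = 0.409 and 0.435). Their changes between 30 and 60 min were -0.41 and -0.45 (adjusted p = 0.00754 and 0.0261). These later falls were no longer called without 30 min replicate 2 (highest adjusted p over all settings 0.0706 and 0.234), nor, for ILMN_1774312, without 60 min replicate 2. The 60 min calls against control were kept in all 16 settings tried for the first probe and all 15 for the second, and these were the only 2 of the 15 calls of which this was true.

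The promoter of MRPL57 is shown because this gene changed most. RefSeq places the window of 250 bases before and 50 from the annotated start at chr13:21176408-21176707 on the plus strand of GRCh38.p14. Capitals mark every match, on either strand, to the motifs searched: the NRF1 core TGCGCA starts 75 bases before the start, and TCTCGCG, the core of a CG-rich palindrome found in many housekeeping promoters, matches at 57, 54 and 14 bases before it, the first 2 overlapping on opposite strands.
MRPL57: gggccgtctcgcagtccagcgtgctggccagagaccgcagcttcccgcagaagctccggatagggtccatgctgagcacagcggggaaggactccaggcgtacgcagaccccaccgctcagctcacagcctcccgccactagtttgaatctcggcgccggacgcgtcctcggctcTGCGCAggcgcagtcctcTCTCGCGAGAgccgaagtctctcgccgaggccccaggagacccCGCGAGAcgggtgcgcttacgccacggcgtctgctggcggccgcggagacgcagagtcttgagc
A second gene, SKA3, which encodes a kinetochore protein, starts 106 bases away in the opposite direction. Its change at 60 min was -0.044 ± 0.076 (adjusted p = 0.75), so the partner gene's transcript gave no detectable fall where that of MRPL57 did; the difference between the genes was not tested.

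MRPL43, also of the large subunit, was lower on 1 of 3 probes. Probe ILMN_1652147 read 7.16 and 7.19 in the controls, 6.97 and 6.86 at 30 min and 6.83 and 6.58 at 60 min, a change of -0.47 ± 0.15 (adjusted p = 0.0483). The 3 groups did not overlap. The other probes of the gene changed by 0.093 and 0.052 (adjusted p = 0.434 and 0.647), so the probes did not move together. The fall of ILMN_1652147 kept its call in only 4 of 15 settings and was -0.25 without background correction (adjusted p up to 0.216; lost without either control array, either 30 min array or 60 min replicate 2).

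MRPL37, MRPL40 and MRPL41 were the risers of this group. MRPL37 read 13.17 and 13.16 in the controls, 13.24 on both 30 min arrays and 13.38 and 13.43 at 60 min. Each group stood above the one before, and the change at 60 min was 0.24 ± 0.052 (adjusted p = 0.0098). MRPL40 changed by 0.24 ± 0.067 (adjusted p = 0.028) and MRPL41 by 0.22 ± 0.055 (adjusted p = 0.0171). On each of these probes both 60 min arrays lay above both controls. None of the 3 calls was kept with median scaling or without either control array, and those of MRPL37 and MRPL40 were also lost without 60 min replicate 2 and without 60 min replicate 1 respectively (highest adjusted p 0.11, 0.453 and 0.209).

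The MRPL37 window is printed as that of a riser that shares its upstream region with a gene going the other way. It lies at chr1:54199917-54200216 on the plus strand of GRCh38.p14, and capitals mark an E-box, CACGTG, 170 bases before the start and matches to CCAAT, the NFY motif, on the opposite strand at 47 and 38 bases before it.
MRPL37: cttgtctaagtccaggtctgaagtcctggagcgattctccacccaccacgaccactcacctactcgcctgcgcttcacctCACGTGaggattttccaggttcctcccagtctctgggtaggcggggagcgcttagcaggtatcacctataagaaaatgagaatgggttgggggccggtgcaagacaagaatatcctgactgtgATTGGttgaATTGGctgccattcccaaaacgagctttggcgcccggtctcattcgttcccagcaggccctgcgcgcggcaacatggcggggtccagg
CYB5RL, annotated as an NADH-cytochrome b5 reductase-like gene, starts 137 bases away on the other strand and changed by -0.36 ± 0.11 at 60 min (adjusted p = 0.0458). That call was kept in only 5 of 16 settings and was lost without any 1 of the 6 arrays (highest adjusted p 0.214).

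At 30 min, 23 of these 26 probes were above control, with a median of 0.075 and none past the threshold. From 30 to 60 min, 19 of the 26 were lower, with a median of -0.088 and 2 called, both of MRPL57. That was 7.69% called, against 15.5% of all detected probes. The comparisons share the 30 min arrays. MRPL58, a peptidyl-tRNA hydrolase built into the large subunit that frees stalled chains, had the largest 30 min change of the group, 0.20 (adjusted p = 0.369).

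Large subunit proteins with a bacterial counterpart made up 44 of the probes. At 60 min 5 rose and none fell (11.4% called, against 16.3% of all detected probes), with a median of 0.09. MRPL11 belongs to the base of the stalk where translation factors bind. Probe ILMN_1690371 read 10.57 and 10.81 in the controls, 10.74 and 10.69 at 30 min and 11.13 and 11.11 at 60 min. The 60 min arrays lay above all others, while the control and 30 min arrays overlapped. The change was 0.43 ± 0.077 against control (adjusted p = 0.00331) and 0.41 against 30 min (adjusted p = 0.00527). Of the rising calls at 60 min, this was the only one kept with median scaling; it was kept in 14 of 15 settings and lost where variances were moderated without the intensity trend (adjusted p = 0.0677). A second probe, ILMN_2316540, read 11.93 and 11.90, then 11.98 and 12.03, then 12.07 and 12.13, a rise of 0.19 ± 0.057 (adjusted p = 0.0428). The third, ILMN_1676458, changed by -0.12 (adjusted p = 0.669). The call of ILMN_2316540 was lost without any 1 of the 6 arrays (highest adjusted p 0.494).

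MRPL23, a protein at the exit of the peptide tunnel, read 11.73 and 11.81 in the controls, 11.83 and 11.80 at 30 min and 12.11 and 11.98 at 60 min. Control and 30 min arrays overlapped and both 60 min arrays lay above them, with a change of 0.27 ± 0.063 (adjusted p = 0.0121). MRPL21 rose on both of its probes, by 0.22 ± 0.057 and 0.19 ± 0.057 (adjusted p = 0.0198 and 0.0441). The changes of its 2 probes differed by 0.034. The call of MRPL23 was lost without control replicate 1 or 60 min replicate 1, that of the first MRPL21 probe without either control or 60 min replicate 2, and that of the second without any 1 array (highest adjusted p 0.209, 0.422 and 0.39).

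MRPL13, a large subunit protein conserved from bacteria, read 11.56 on both controls, 11.80 and 11.89 at 30 min and 11.63 and 11.93 at 60 min. Both later groups lay above the controls, but the 60 min arrays were far apart. Its changes were 0.28 ± 0.084 at 30 min (adjusted p = 0.3) and 0.22 ± 0.084 at 60 min (adjusted p = 0.101), neither past the threshold. Without 60 min replicate 1 both passed, at 0.28 (adjusted p = 0.0387) and 0.37 (adjusted p = 0.00407). Without 60 min replicate 2 the 30 min change passed (adjusted p = 0.0385) and the 60 min change was 0.067 (adjusted p = 0.598). MRPL15, which sits beside the peptide-bond centre in bacteria, read 9.22 and 9.33, then 9.49 and 9.49, then 9.25 and 9.42. Its 30 min arrays were above the controls and its 60 min arrays overlapped them, with changes of 0.21 and 0.058 (adjusted p = 0.423 and 0.701).

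Between 30 and 60 min, 7 probes of this bacterial-type group rose and none fell, with a median of 0.048. These were 15.9% of the group, where 15.5% of all detected probes were called. MRPL24, another protein at the tunnel exit, rose on both probes. Probe ILMN_2398995 read 10.76 and 10.83 in the controls, 10.65 and 10.54 at 30 min and 11.11 and 10.90 at 60 min, so that the 30 min arrays were the lowest and the 60 min arrays the highest. It rose by 0.41 ± 0.078 from 30 to 60 min (adjusted p = 0.00562), while its changes against control were -0.20 at 30 min and 0.21 at 60 min (adjusted p = 0.414 and 0.0936). The other MRPL24 probe rose by 0.19 (adjusted p = 0.0494; it falls outside the naming rule and is given after its value was seen). MRPL17 rose by 0.23 (adjusted p = 0.0171) and MRPL20 by 0.27 on 1 of 2 probes (adjusted p = 0.0469), with no change on the other (adjusted p = 1). The call of ILMN_2398995 was lost without 30 min replicate 2, that of MRPL17 without either 30 min array or 60 min replicate 2, and that of MRPL20 without any 1 array (highest adjusted p 0.0923, 0.347 and 0.566).

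MRPL10, which anchors the stalk, and MRPL30 showed how far probes of 1 gene could part. Probe ILMN_1695472 of MRPL10 read 6.80 and 6.86 in the controls, 6.41 and 6.27 at 30 min and 6.68 and 6.83 at 60 min. The 30 min arrays were below all others, and the change of -0.49 was the lowest of the 103 at 30 min, yet did not pass (adjusted p = 0.324). Its other probe changed by 0.077. Probe ILMN_1661039 of MRPL30 had the highest change of all from 30 to 60 min, 0.49, also short of the threshold (adjusted p = 0.0722), against 0.052 for its other probe. Of the 22 genes with several tested probes, 4 had probes that differed by over 0.3 at 60 min against control, 3 at 30 min and 4 between 30 and 60 min, with median gaps of 0.098, 0.094 and 0.20.

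**Figure D3:**
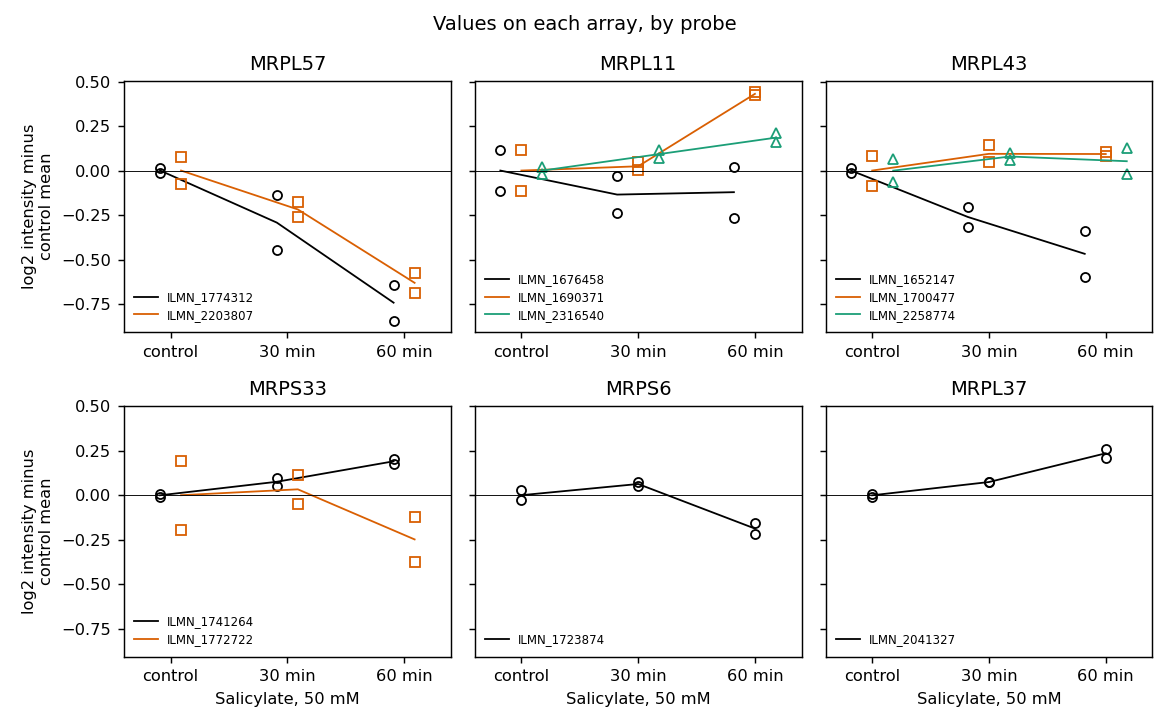
Log2 intensity on each array minus the control mean of that probe (y axis) at control, 30 min and 60 min of 50 mM salicylate (x axis), for 6 genes; each symbol is 1 array, each colour 1 probe, and lines join group means. Both MRPL57 probes fall together, while the probes of MRPL11, MRPL43 and MRPS33 part.

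Small subunit proteins with a bacterial counterpart had 21 probes. At 60 min 1 rose and 1 fell (9.52% called, against 16.3% of all detected probes), with a median of 0.022. MRPS6, a protein of the platform of the small subunit in bacteria, read 13.27 and 13.32 in the controls, 13.37 and 13.35 at 30 min and 13.08 and 13.14 at 60 min. The 60 min arrays were the lowest and the 30 min arrays the highest. Its change was -0.19 ± 0.054 against control (adjusted p = 0.0343) and -0.25 against 30 min (adjusted p = 0.00968). The first call was kept in 9 of 16 settings, being lost with median scaling (highest adjusted p 0.345) and without either control or 60 min replicate 1, and the second in 13 of 16, being lost without 30 min replicate 1 (highest adjusted p 0.109). MRPS15, which in bacteria binds the central part of the small-subunit RNA early in assembly, read 12.45 and 12.43 in the controls, 12.52 and 12.46 at 30 min and 12.59 and 12.66 at 60 min. Its rise of 0.18 ± 0.056 (adjusted p = 0.0447) kept its call in 6 of 16 settings and was lost without either control, either 30 min array or 60 min replicate 2 (highest adjusted p 0.379). Between 30 and 60 min MRPS11 rose on 1 of 2 probes by 0.29 (adjusted p = 0.0373) and MRPS2 changed by -0.23 (adjusted p = 0.0474). The first call was lost without either 30 min array or 60 min replicate 1, the second without either control, either 60 min array or 30 min replicate 1 (highest adjusted p 0.417 and 0.352).

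MRPS12, a protein of the decoding site, had 3 tested probes with changes of 0.18, -0.18 and -0.15 at 60 min, none past the threshold (adjusted p = 0.153, 0.281 and 0.0917). The paralogs MRPS18A, MRPS18B and MRPS18C all resemble bacterial S18, but the first is in the large subunit, listed with the proteins particular to mitochondria. Their 4 tested probes changed by 0.070, 0.032, 0.015 and 0.022 at 60 min, with 95% intervals that reached from -0.13 to 0.22 at their widest ends.

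Small subunit proteins listed as particular to mitochondria had 12 probes. At 60 min 2 rose and none fell (16.7% called, against 16.3% of all detected probes), with a median of 0.064. MRPS31 read 10.87 and 10.83 in the controls, 11.02 and 11.03 at 30 min and 11.02 and 11.18 at 60 min. Both treated groups lay above the controls and overlapped each other, and the change at 60 min was 0.25 ± 0.068 (adjusted p = 0.0251), lost without either control or 60 min replicate 2 (highest adjusted p 0.441). MRPS33 rose by 0.19 on ILMN_1741264 (adjusted p = 0.0399), a call lost without any 1 array (highest adjusted p 0.541), and changed by -0.25 on ILMN_1772722 (adjusted p = 0.325), whose control arrays alone differed by more than that, at 7.19 and 7.58. MRPS25 read 8.97 and 8.96 in the controls, 8.75 and 8.90 at 30 min and 9.16 and 9.21 at 60 min. It rose by 0.36 ± 0.087 from 30 to 60 min (adjusted p = 0.0172), with a change of 0.22 against control (adjusted p = 0.11), and the rise was not called without 30 min replicate 1 (highest adjusted p 0.304).

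At 30 min none of the 103 probes passed against control by limma, where 0.232% of all probes (52) did. Their lowest adjusted p was 0.3, that of MRPL13, and 18 had an unadjusted p under 0.05, against 2302 of all 22377 probes. The median change was 0.035 and 73 of 103 changes were above 0, while the 95% interval lay within 0.5 of no change for 98 probes (95.1%). The largest rises were those of MRPL13 (0.28), MRPL35 on 1 of 3 probes (0.22), MRPL15 (0.21), MRPL19 (0.21) and MRPL58 (0.20).

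From 30 to 60 min, 9 of the 103 probes rose and 4 fell, in 11 genes, with 50 changes above 0 and a median of -0.0011. Over all probes 7.5% rose and 7.98% fell. Of the 15 probes called at 60 min against control and the 13 called at 60 against 30 min, 6 were the same, in 5 genes (MRPL57, MRPL11, MRPL21, MRPL23 and MRPS6), which is a description since both comparisons hold the 60 min arrays. In each of the 15 and each of the 13 the arrays of the 2 groups did not overlap. With 2 arrays per group this is no separate evidence for the calls. Arrays were also apart for probes that were not called, such as MRPL52 at 60 min against control and MRPL46 at 60 against 30 min.

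**Figure D4:**
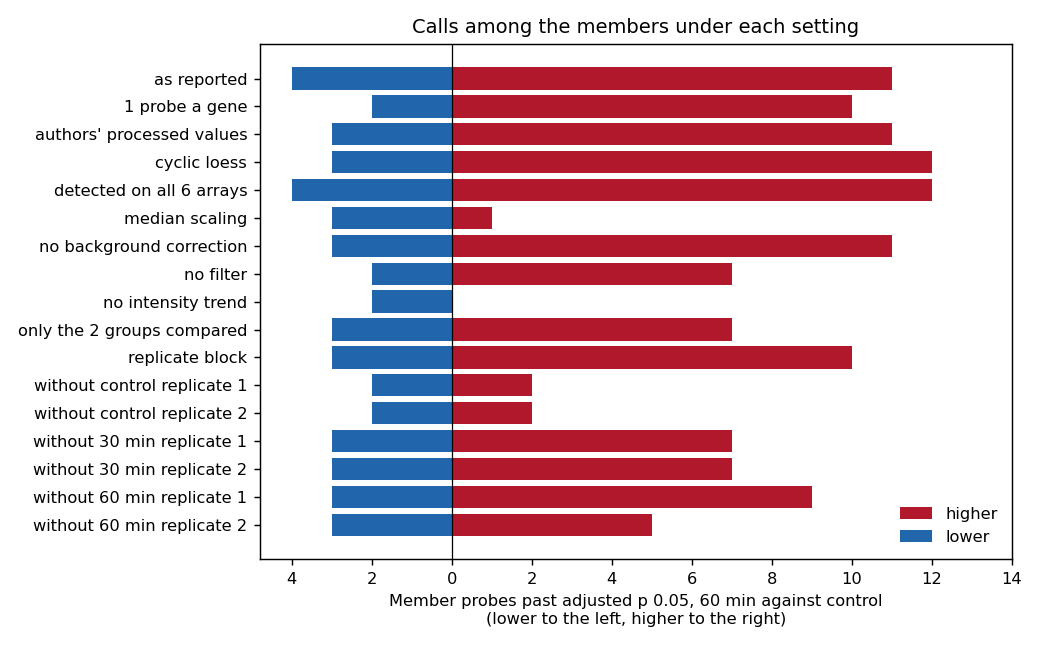
Number of the 103 probes (76 with 1 probe a gene, 102 where detected on all 6 arrays, 110 with no filter) with an adjusted p under 0.05 at 60 min against control, lower to the left of 0 and higher to the right (x axis), for each way of processing the arrays (y axis). The count of higher probes ranges from 0 to 12 and that of lower probes from 2 to 4.

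Cytosolic ribosomal proteins and the nuclear genes of the respiratory chain and ATP synthase were set beside the family for comparison. At 60 min, 25 of 119 cytosolic ribosomal probes rose and 3 fell, with a median of 0.097. Of 97 respiratory chain and ATP synthase probes 7 rose and 1 fell, with a median of 0.064. Called in either direction were 23.5% and 8.25%, against 16.3% of all detected probes. None of either set passed at 30 min by limma, where 20 and 7 had an unadjusted p under 0.05. No test of the difference between the sets was made.

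Other genes of mitochondrial gene expression were read from lists, by the brightest detected probe of each gene, in the same fit. For scale, 16.3% of all detected probes were called at 60 min and 15.5% from 30 to 60 min. In the separate fit with 1 probe a gene, 22.9% and 22.7% of all genes were called. Of 4 mitochondrial ribosomal proteins with other names, DAP3, CHCHD1, GADD45GIP1 and PTCD3, none passed at 60 min by limma and 1 had an unadjusted p under 0.05; their changes were 0.17, -0.069, 0.13 and -0.20. Of 24 assembly factors of the mitochondrial ribosome, 1 rose and none fell, with a median of -0.082. The riser was NOA1, a GTPase needed for small subunit assembly, which changed by 0.25 ± 0.064 (adjusted p = 0.0192). RBFA, which helps mature the small-subunit RNA, rose from 30 to 60 min by 0.38 (adjusted p = 0.0115). Of 16 translation factors 1 rose at 60 min, MTIF2, the initiation factor that brings the first tRNA, by 0.31 ± 0.064 (adjusted p = 0.00719), and none fell. The rises of NOA1, RBFA and MTIF2 were lost with median scaling (highest adjusted p 0.375, 0.228 and 0.205), and each was also lost without at least 1 array: NOA1 without control replicate 2 or 60 min replicate 2, RBFA without 30 min replicate 1 and MTIF2 without control replicate 1.

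Of 21 enzymes that charge mitochondrial tRNAs, 4 rose and 1 fell at 60 min (23.8% called), with a median of -0.024. The faller was MARS2, the methionyl-tRNA synthetase, which read 10.66 and 10.64 in the controls, 10.61 and 10.59 at 30 min and 10.26 and 10.22 at 60 min. Its 60 min arrays lay below all others, by -0.41 ± 0.063 against control (adjusted p = 0.00146), and the call was kept in all 16 settings. The risers were GATC, a subunit of the amidotransferase that makes glutaminyl-tRNA, by 0.40, KARS1, the lysyl-tRNA synthetase of both cytosol and mitochondria, by 0.28, RARS2 by 0.25 and VARS2 by 0.22. All 4 calls were lost with median scaling and without control replicate 2 (highest adjusted p 0.186, 0.369, 0.412 and 0.42). SARS2, which shares its upstream region with MRPS12, changed by -0.32 from 30 to 60 min, a call lost without 30 min replicate 1 (highest adjusted p 0.109).

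Of 19 genes of mitochondrial DNA transcription and RNA processing, none rose and 2 fell at 60 min (10.5% called), with a median of -0.078. From 30 to 60 min 6 fell (31.6% called), with a median of -0.16. POLRMT, the mitochondrial RNA polymerase, read 11.88 and 11.85 in the controls, 11.92 and 11.89 at 30 min and 11.63 and 11.64 at 60 min. The change was -0.23 ± 0.056 against control (adjusted p = 0.015) and -0.27 against 30 min (adjusted p = 0.00766). PNPT1, an RNA-degrading enzyme of the organelle, changed by -0.41 at 60 min on the brightest of 3 tested probes (adjusted p = 0.017 by limma). The other probes changed by -0.195 and -0.242. At 30 min the brightest probe had changed by -0.41 (adjusted p = 0.209 by limma). From 30 to 60 min the fallers besides POLRMT were TFAM, which packages mitochondrial DNA and starts its transcription, TEFM, its elongation factor, MTERF1, FASTKD1 and FASTKD5, with changes of -0.25, -0.28, -0.38, -0.32 and -0.22. The POLRMT call against control was lost without either control array (highest adjusted p 0.113) and that of PNPT1 without control replicate 1 or 60 min replicate 2 (0.154), while the 6 later falls were each lost without at least 1 array, with a highest adjusted p between 0.0871 and 0.243. No probe matched a list of mitochondrially encoded transcripts, so the RNAs that this ribosome translates are not analysed here.

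Of 11 regulators linked to mitochondrial biogenesis, none rose and 3 fell at 60 min (27.3% called), with a median of -0.17. From 30 to 60 min 1 rose and 3 fell (36.4% called), with a median of 0.040. The riser was SP1, by 0.31 (adjusted p = 0.0428 by limma), with a change of 0.052 at 60 min against control. The call of SP1 was kept in 6 of 16 settings. It was lost with median scaling, and without either control, either 30 min array or 60 min replicate 1. MYC, a transcription factor with many ribosomal and mitochondrial targets, read 12.10 and 12.14 in the controls, 12.17 and 12.10 at 30 min and 11.60 and 11.57 at 60 min. The 60 min arrays lay far below the rest, with a change of -0.53 ± 0.057 (adjusted p = 0.000215) that was kept in all 16 settings. YY1, a zinc-finger factor, read 13.09 and 13.01 in the controls, 12.82 and 13.02 at 30 min and 12.66 and 12.51 at 60 min. The change was -0.46 ± 0.074 (adjusted p = 0.00184 by limma). The other tested probes of MYC and YY1 changed by -0.619 and -0.239 at 60 min. PPRC1, a coactivator of the PGC-1 family, changed by -0.23 (adjusted p = 0.0486), a call kept in 5 of 16 settings and lost without either control, either 30 min array or 60 min replicate 1 (highest adjusted p 0.249). NRF1 and GABPA, factors known to bind promoters of nuclear genes for mitochondrial proteins, changed by -0.037 ± 0.22 and 0.11 ± 0.082 (adjusted p = 0.934 and 0.429 by limma). The NRF1 probe read low, at 5.75 to 6.41 over the arrays, and the other tested NRF1 probe changed by -0.257. These values do not settle whether the NRF1 transcript changed.

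Some sequence motifs, which the choice by name did not use, were found in the family's promoters more often than among genes with a detected probe. RefSeq windows of 300 bases were found for 68 of the 76 genes and searched on both strands. AAGATGGC, a YY1 motif, was present in 20 of 68 (29.4%), against 5.29% of 9880 genes with a detected probe and 3.91% of 15842 promoters in all. CCGGAAG, an ETS motif of the kind bound by GABPA, was present in 28 (41.2%), against 18.5% and 14.2%. TGCGCA, the core of the NRF1 motif, was present in 14 (20.6%), against 13.5% and 10.8%. Shares of the SP1 motif GGGCGG (61.8%), CCAAT (27.9%), CACGTG (8.82%), TCTCGCG (5.88%) and TATAAA (2.94%) were below those of genes with a detected probe (69.4%, 37.0%, 10.2%, 6.36% and 6.02%). At least 1 of the YY1 and ETS motifs was found in 40 of 68 promoters (58.8%, against 22.5%), and both in 8 (11.8%, against 1.28%): MRPL20, MRPL38, MRPL47, MRPL51, MRPL52, MRPS10, MRPS12 and MRPS18A. The member windows had a median GC content of 60.3%, against 65.3% for genes with a detected probe. These are matches of letters, and no binding was measured.

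MRPL20, whose bacterial counterpart is needed early in the assembly of the large subunit, illustrates the paired motifs. Its window lies at chr1:1407244-1407543 on the minus strand of GRCh38.p14 and is printed in the direction of transcription, with ETS matches in capitals 44 and 21 bases before the start and the YY1 match 15 bases after it.
MRPL20: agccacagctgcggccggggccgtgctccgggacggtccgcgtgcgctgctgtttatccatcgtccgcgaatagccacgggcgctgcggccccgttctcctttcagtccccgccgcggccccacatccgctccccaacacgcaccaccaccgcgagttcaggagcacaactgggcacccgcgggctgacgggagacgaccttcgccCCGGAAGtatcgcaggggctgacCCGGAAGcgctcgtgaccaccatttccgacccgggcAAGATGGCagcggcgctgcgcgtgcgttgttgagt

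**Figure D5:**
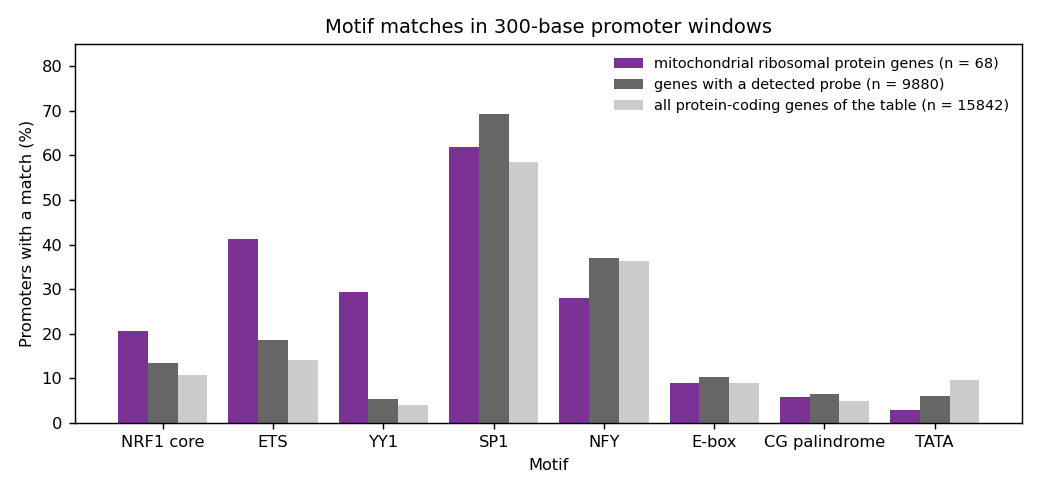
Share of 300-base promoter windows with at least 1 match to each motif on either strand (y axis, percent; motifs along the x axis, with CG palindrome standing for TCTCGCG), for 68 mitochondrial ribosomal protein genes, 9880 genes with a detected probe and 15842 protein-coding genes in all. The YY1 and ETS bars of the mitochondrial ribosomal genes, 29.4% and 41.2%, stand above the others for those motifs.

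By the brightest probe of each gene, the 20 genes with the YY1 motif had a median change of 0.0069 at 60 min and a range of -0.18 to 0.097, and none was called by limma. The 48 without it had a median of 0.082 and a range of -0.63 to 0.25, with 7 rising and 2 falling. For the ETS motif the medians were 0.052 with (28 genes, 3 rising) and 0.028 without (40 genes, 4 rising and 2 falling). For scale, 16.3% of all detected probes were called at 60 min, and 22.9% of all genes in the fit with 1 probe a gene. No test of the differences between genes with and without a motif was made.

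The genes were also compactly built and often paired. They lie on 21 chromosomes and span a median of 8642.5 bases, against 28523 for genes with a detected probe. Of 68, 17 (25%) had another gene starting within 1000 bases on the opposite strand, against 13.1% of genes with a detected probe and 10.2% in all. MRPS11 and MRPL46 are such a pair, 320 bases apart, and changed by 0.15 and -0.11 at 60 min (adjusted p = 0.0941 and 0.216). Of the 17 partners 3 rose and 4 fell at 60 min, with a median of -0.044. Of all detected probes 16.3% were called at 60 min, and of all genes 22.9% in the fit with 1 probe a gene. The partners that fell were PSMA2, a proteasome subunit beside MRPL32, PPP1R10, a regulatory subunit of protein phosphatase 1 beside MRPS18B, ZNF189 beside MRPL50 and CYB5RL, with changes of -0.37, -0.34, -0.34 and -0.36. Those that rose were NCAPD2, a condensin subunit beside MRPL51, PIERCE1 beside MRPS2 and PTCD2 beside MRPS27, with changes of 0.24, 0.29 and 0.40. Of the mitochondrial ribosomal genes with such a partner, MRPL57, MRPL37 and MRPL40 were themselves called at 60 min, and the partner called with one of these was CYB5RL. The calls of the first 3 partners that fell were lost without control replicate 2 in each case, and of those that rose without at least 1 array (highest adjusted p 0.0655 to 0.457).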

How the data were processed

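RNA of HEK293 cells was hybridised to 6 Illumina bead arrays, 2 for each of 3 groups, and samples were grouped by the labels. For 47323 probes the authors deposited a linear, unnormalised intensity on each array, and each intensity has its own detection p-value, per the file headers. Sorting an array by intensity sorted its detection p-values in reverse (100% of steps), whereas the order of another array did so for at most 67.2%, which ties the columns together. A second table, which the authors deposited with the sample records, holds log2 values with a median of 7.19 in every column; these differed by at most 5e-07 from log2 of the intensities after quantile normalisation with no background correction. The submitters' processing notes list GenomeStudio 2011.1 and R 2.15.3, whose roles are not given in the sources used here. All value columns were matched to a sample.

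Intensities were background corrected with limma's neqc, which inferred the negative controls from detection p-values (offset 16), quantile normalised and taken to log2. The 22377 probes with a detection p-value under 0.05 on at least 2 arrays were fitted together by limma 3.58.1 (R 4.3.3) as group means, with no block and variances moderated along the intensity trend (3 residual and 9.25 prior degrees of freedom). P-values were adjusted over all 22377 probes by the Benjamini-Hochberg method, and 0.05 was the threshold. The 2 arrays per group limit the precision; the median SE over all probes was 0.116. Genes were named from the platform annotation: a single symbol for 30113 probes, several for 8 and none for 17202. All 76 symbols of the family matched RefSeq. Promoters came from RefSeq, GRCh38.p14, and further steps ran in Python 3.11.15 with pandas 2.3.3 and matplotlib 3.10.9.

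The members, the lists of related genes and the motifs were chosen with earlier results of these data known. Probes were named where called in any comparison (the 20 with the lowest adjusted p), among the 5 largest rises or falls of a comparison, as markers or S18 paralogs, where probes of a gene differed by over 0.3, or where detected on 1 or 2 arrays; list genes where called, the 5 with the lowest adjusted p if more. Divergent partner genes were named by distance, within 1000 bases. Other background correction, scaling, filters, variance models, 1 probe a gene, the authors' values, a replicate block and the omission of each array were tried as alternatives. The labels number the arrays 1 and 2 in each group without saying what the number means.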

Additional observations from a re-analysis of the deposited data

Results flagged for a closer look

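For 13 of the 103 probes the effect at 60 min differed from the effect at 30 min by limma's test of the difference itself (adjusted p under 0.05). Both effects are set against the same controls, which cancel, so the difference equals the change from 30 to 60 min. Over all probes 15.5% differed in this way, against 12.6% of the 103. No explanation was tested.

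The difference was -0.41 for MRPL57 on ILMN_2203807 (-0.63 at 60 min and -0.22 at 30 min) and -0.45 on ILMN_1774312 (-0.74 and -0.29), so that both effects had 1 sign and grew. MRPS6 (-0.25) and MRPS2 (-0.23) had effects above 0 at 30 min, 0.063 and 0.12, and below 0 at 60 min, -0.19 and -0.11. MRPL11 on ILMN_1690371 (0.41), MRPL23 (0.23) and MRPL21 on ILMN_2348050 (0.19) had effects near 0 at 30 min, 0.023, 0.046 and 0.034, and of 0.43, 0.27 and 0.22 at 60 min. In the other 6 the effect was below 0 at 30 min and above 0 at 60 min: MRPL24 on ILMN_2398995 (0.41) and ILMN_1695576 (0.19), MRPS25 (0.36), MRPS11 (0.29), MRPL20 (0.27) and MRPL17 (0.23). Neither these 6 probes nor that of MRPS2 passed against control at 30 or at 60 min.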

How the results depend on the processing

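No probe named for a call changed direction in the 16 settings tried. Against control at 60 min, where 15 probes were called (11 higher, 4 lower), 4 were called with median scaling (1 higher, 3 lower), 9 with no detection filter and 2, both lower, without the intensity trend. From 30 to 60 min, where 13 were called, 8 were called with 1 probe a gene, 2 with median scaling, both lower, 0 without the intensity trend (28 at an unadjusted p under 0.05 with it) and 8 when only the 2 groups compared were fitted. At 30 min the fit of only those 2 groups called 1 probe, MRPL13. Leaving out each array in turn gave 4 to 12 calls at 60 min, 0 to 1 at 30 min and 4 to 9 from 30 to 60 min. The fewest, 4, came without control replicate 1 or 2 at 60 min and without 30 min replicate 1 or 2 for the later step; without 60 min replicate 2 there were 8 and 7.

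The median change moved from 0.0569 to -0.00258 with median scaling at 60 min and from 0.0345 to 0.0505 at 30 min. From 30 to 60 min it moved from -0.00114 to -0.0481 with median scaling and to -0.0187 with 1 probe a gene. The median of all detected probes moved with median scaling too. It went from 0.00131 to -0.0446 at 60 min and from 0.00132 to 0.00571 at 30 min. From 30 to 60 min it went from -0.00322 to -0.0513, and with 1 probe a gene it was -0.00871. The next ranges are again those of the 103 probes. With each array left out the median of the 103 changes ranged from 0.0212 to 0.0788 at 60 min and from 0.0112 to 0.0594 at 30 min. From 30 to 60 min it ranged from -0.0311 to 0.0307. The cause of these shifts was not tested.

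With the replicate number as a block 13, 0 and 11 probes were called at 60 min, at 30 min and from 30 to 60 min. Deviations of same-numbered arrays correlated at 0.0313, 0.0779 and -0.0778, so little deviation was shared by replicate number. With so few arrays per group, these values cannot show whether same-numbered samples were prepared together. The authors' processed values gave 14, 0 and 11 calls, and cyclic loess 15, 0 and 14. Probes near background, such as MRPL43's ILMN_1652147, moved with background correction.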
